A study of Mus musculus with 3 samples.

Results

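The guanylate-binding proteins (GBPs) and the immunity-related GTPases (IRGs) are 2 families of interferon-induced GTPases. Their 10 genes described here, Gbp2, Gbp3, Gbp4, Gbp5, Gbp6, Gbp7, Gbp9, Igtp, Irgm1 and Ifi47, were taken by symbol from 23337 measured gene symbols. All 10 were among the 9800 genes tested. Their RNA was sequenced in CD4+ T cells carrying the label Th1, the helper T cell class that makes interferon gamma. All cells came from C57/Bl6j mice, wild-type and 7 weeks old. The lymphoid group held 2 libraries, titled as spleen, although their tissue label adds lymph nodes and draining lymph nodes. The tumour group was 1 library of cells from B16-F10 tumours, which grow from a transplantable mouse melanoma line. No treatment is named, and separate mice, pooled mice and shared tumour-bearing mice cannot be told apart from the labels. The spread between the lymphoid libraries may therefore be technical, and the tumour value had no replicate.

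Interferon gamma binds its receptor and activates JAK kinases, whose signal reaches promoters at gamma-activated sites (GAS). Interferon regulatory factors such as IRF1 bind interferon-stimulated response elements (ISRE). GBPs and IRGs are among the strongest targets of this route, and are best known for coating microbes and the vacuoles that hold them inside macrophages and other infected cells. In T cells they rise with interferon signalling, and Irgm1 is known for keeping CD4+ T cells alive after activation.

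The bases before the RefSeq transcription start are shown for the 2 genes that were higher in the tumour library, the 1 that was lower, and the most abundant of the 10 (GRCm38.p6, 5′ to 3′, all on the plus strand). Capitals mark GAS letters (TTCNNNGAA) and ISRE core letters (GAAANNGAA), searched on both strands. The windows are chr3:142496684-142496933 for Gbp5, chr3:142620413-142620662 for Gbp2, chr11:49076337-49076586 for Ifi47 and chr11:58199306-58199555 for Igtp.
Gbp5: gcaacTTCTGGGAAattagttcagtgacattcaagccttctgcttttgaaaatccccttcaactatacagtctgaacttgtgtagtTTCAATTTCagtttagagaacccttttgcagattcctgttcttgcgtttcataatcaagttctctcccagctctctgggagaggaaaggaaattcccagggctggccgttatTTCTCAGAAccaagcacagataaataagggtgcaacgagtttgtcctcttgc
Gbp2: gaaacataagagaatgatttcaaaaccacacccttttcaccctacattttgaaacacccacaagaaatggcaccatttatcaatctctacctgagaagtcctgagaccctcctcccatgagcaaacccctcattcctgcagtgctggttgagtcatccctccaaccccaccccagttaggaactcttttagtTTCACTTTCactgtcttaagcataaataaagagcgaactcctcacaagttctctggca
Ifi47: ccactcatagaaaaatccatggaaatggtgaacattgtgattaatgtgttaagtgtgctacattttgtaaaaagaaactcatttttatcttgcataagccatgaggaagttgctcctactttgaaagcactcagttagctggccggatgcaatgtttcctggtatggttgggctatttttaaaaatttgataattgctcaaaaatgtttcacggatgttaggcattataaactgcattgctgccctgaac
Igtp: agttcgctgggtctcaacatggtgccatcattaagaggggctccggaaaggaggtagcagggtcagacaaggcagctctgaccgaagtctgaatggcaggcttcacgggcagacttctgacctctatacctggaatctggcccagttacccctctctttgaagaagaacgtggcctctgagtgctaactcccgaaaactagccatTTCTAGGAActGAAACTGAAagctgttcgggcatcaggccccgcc

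Gbp5 held GAS letters starting 245 and 52 bases before its start, and an ISRE core at 164 bases. Gbp2 held an ISRE core at 58 bases and no GAS letters, and Igtp held GAS letters at 45 bases and an ISRE core at 34 bases. The Ifi47 window held neither set of letters. These distances are from the RefSeq starts. The gene spans given below are GENCODE's, and those of Gbp5 and Gbp2 begin before the RefSeq start. The letters marked for these 2 genes thus lie inside the GENCODE spans. In windows that also take in the first 50 transcribed bases, 7 of the 10 genes had an entry. Of these 7, 3 held GAS letters (Gbp5, Gbp7 and Igtp) and 6 held an ISRE core (all but Ifi47). Among all 32851 promoters of that length, 8.30% held GAS letters, 8.56% an ISRE core and 1.07% both. The 3 genes with both were Gbp5, Gbp7 and Igtp, and no GAS match shared bases with an ISRE match. Gbp3 had a further start whose window held neither, and the 2 ISRE matches of Gbp3, like those of Irgm1, overlap each other. Gbp5, with both sets of letters, was called higher in the tumour library below, whereas Igtp and Gbp7, also with both, were not called.

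Levels are in FPKM (fragments scaled to gene length and library depth), a unit inferred from the deposited values that allows genes of different length to be compared. They were brought to a common scale with median-of-ratios size factors of 1.29 and 1.33 for the lymphoid libraries and 0.58 for the tumour library. Estimated depths were 11397400 and 15424200 fragments for the lymphoid libraries and 3251990 for the tumour library. Of the T cell markers, 7 were measured and none was called different, with Cd4 at 67.9, 59.3 and 73.9 scaled FPKM and Cd3e at 126.1, 106.0 and 111.2 in lymphoid 1, lymphoid 2 and tumour. Values are given in this order throughout. In the tumour library 3 of the 7 lay above both lymphoid values and 3 below both. Cd3g, the most abundant of the 7, measured 187.6, 215.6 and 144.4. Tests are limma's, on log2(scaled FPKM + 1) with Benjamini-Hochberg adjustment over 9800 genes, and a gene is called at an adjusted p under 0.05. Folds are ratios of scaled FPKM, and log2 differences are on the log2(scaled FPKM + 1) scale. A further version of the test adds the counting error of the tumour library, from each gene's estimated fragments. In RNA from many cells, fewer cells of a type and less RNA per cell cannot be told apart.

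Gbp5 and Gbp2 rose, Ifi47 fell and the other 7 genes were not called. The members' median log2 difference was 0.02, against -0.01 over all tested genes. The 2 higher calls among 10 members compare with 12.7% of all tested genes called higher, and the 1 lower call with 9.17% called lower, so that the number of calls is no result about the group. The tumour value lay above both lymphoid values for 4 members and below both for 4, against 41.3% and 42.6% of all tested genes. With counting error, 1 member was called higher and none lower, against 3.6% and 0.329% of 9714 genes. That member was Gbp5.

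**Figure D1:**
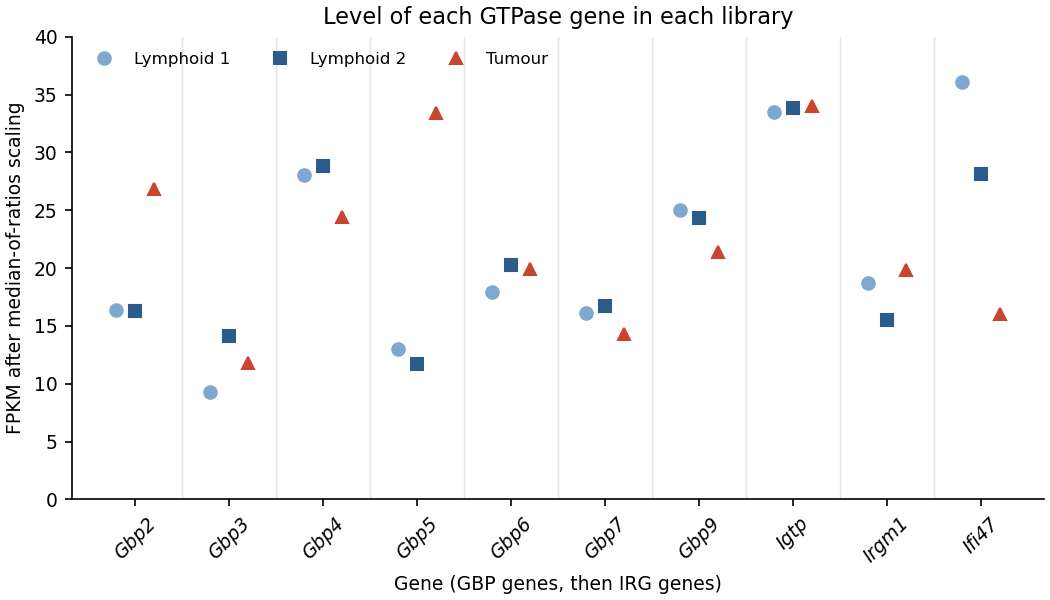
Scaled FPKM (vertical axis) of each of the 10 genes in lymphoid 1 (light circles), lymphoid 2 (dark squares) and the tumour library (red triangles), 1 point per library. Gbp5 and Gbp2 stand at 33.4 and 26.8 in the tumour library, above their lymphoid points, and Ifi47 at 16.1 below its own; values before scaling place Gbp2 below its lymphoid points.

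The GBP genes lie in 2 clusters, on chromosome 3 and chromosome 5. Gbp5, on the chromosome 3 cluster, encodes a GBP known for promoting NLRP3 inflammasome assembly (GRCm38 chr3:142493978-142522344, plus strand, protein coding). It measured 13.0 and 11.7 scaled FPKM in the lymphoid libraries and 33.4 in the tumour library. The lymphoid values were close together, at 12.4 ± 0.930 (SD, n = 2), and the tumour value lay well above both. The ratio was 2.70-fold and the log2 difference 1.36 (SE 0.17, limma adjusted p = 0.00571, 95% interval 0.93 to 1.80). With counting error the adjusted p was 0.0262, at an estimated 192 tumour fragments. Gbp5 was the only member whose tumour value was the highest of its 3 also in the FPKM as deposited, at 16.9, 15.6 and 19.3. There its difference of 0.24 was not called (limma adjusted p = 0.228).

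Gbp2, a prenylated GBP that damages the vacuole of Toxoplasma, lies in the same cluster (chr3:142620602-142638008, plus strand). It measured 16.4 and 16.3 in the lymphoid libraries and 26.8 in the tumour library. The lymphoid values nearly coincided, at 16.3 ± 0.0757 (SD, n = 2), and the tumour value was 1.64-fold their mean. The log2 difference was 0.68 (SE 0.17, limma adjusted p = 0.0398, 95% interval 0.27 to 1.10). The call was lost with counting error (limma adjusted p = 0.194, 127 estimated fragments), without a filter on low values (0.0783) and with a minimum mean of 5 FPKM (0.0534). In the values as deposited Gbp2 was lower in the tumour library, at 21.2, 21.7 and 15.5 FPKM, with a log2 difference of -0.44.

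Ifi47, also named Irgd, is an IRG that loads onto vacuole membranes (chr11:49076587-49096974, plus strand). It measured 36.1 and 28.2 in the lymphoid libraries and 16.1 in the tumour library. The lymphoid libraries differed more here, at 32.1 ± 5.59 (SD, n = 2), yet both exceeded the tumour value, and their mean was 2.00 times it. The log2 difference was -0.95 (SE 0.21, limma adjusted p = 0.0326, 95% interval -1.48 to -0.41). With counting error the adjusted p was 0.188, at 53.6 estimated fragments, the fewest of the 10 members. The call was also lost without a filter (limma adjusted p = 0.0824), with a minimum mean of 5 FPKM (0.0768) and on library totals (0.612). The tumour value was the lowest of the 3 in the values as deposited too, at 46.7, 37.6 and 9.30 FPKM.

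Of the other GBPs on chromosome 3, Gbp3 measured 9.32 and 14.1 in the lymphoid libraries and 11.8 in the tumour library. The tumour value fell between the lymphoid ones, which were the farthest apart of any member in log2 terms, and the log2 difference was 0.04 (limma adjusted p = 0.938). Gbp7, whose protein is known to help build the oxidase of phagocytes, measured 16.1, 16.7 and 14.3, with a log2 difference of -0.18 (limma adjusted p = 0.460). The 3 GBPs of the chromosome 5 cluster were not called. Gbp4 measured 28.1, 28.8 and 24.4, with a log2 difference of -0.21 (limma adjusted p = 0.418). Gbp9 measured 25.0, 24.3 and 21.4, with a log2 difference of -0.20 (limma adjusted p = 0.451). Both were below their lymphoid values in the tumour library by less than the test could call, and above them on library totals. Gbp6 measured 17.9, 20.3 and 19.9, with the tumour value between the lymphoid ones (log2 difference 0.06, limma adjusted p = 0.843). The median log2 difference was 0.36 over the 4 chromosome 3 genes and -0.20 over the 3 chromosome 5 genes. These medians have no test.

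Igtp and Irgm1 encode IRGs of the regulatory type, which sit on the cell's own membranes and hold the other IRGs inactive there. Igtp, also named Irgm3 (chr11:58199556-58207591), measured 33.5, 33.9 and 34.0, and was the most abundant member by its mean over the 3 libraries. Its libraries nearly coincided, with a log2 difference of 0.01 (95% interval -0.43 to 0.45, limma adjusted p = 0.964). Irgm1 (chr11:48861968-48871683, minus strand) measured 18.7, 15.5 and 19.9. The tumour value was above both lymphoid values by less than the test could call (log2 difference 0.21, limma adjusted p = 0.467). Over the 7 members not called, the 95% intervals ran from -0.64 (lower end for Gbp4) to 0.69 (upper end for Irgm1). These intervals are per gene and not adjusted.

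In the lymphoid libraries the order by mean scaled FPKM was Igtp at 33.7, Ifi47 at 32.1, Gbp4 at 28.5, Gbp9 at 24.7, Gbp6 at 19.1, Irgm1 at 17.1, Gbp7 at 16.4, Gbp2 at 16.3, Gbp5 at 12.4 and Gbp3 at 11.7. Neighbours whose lymphoid values overlapped were Igtp and Ifi47, Ifi47 and Gbp4, Gbp6 and Irgm1, Irgm1 and Gbp7, Gbp7 and Gbp2, and Gbp5 and Gbp3. Gbp4 and Gbp9, Gbp9 and Gbp6, and Gbp2 and Gbp5 did not overlap. All 10 means lay between the 77.9 and 93.5 percentiles of tested genes.

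Ranks within a library do not depend on the scaling between libraries, and were compared after the values had been seen. Gbp5 ranked 9 and 10 of the 10 genes in the lymphoid libraries and 2 in the tumour library. Gbp2 ranked 7, 7 and 3, and Ifi47 ranked 1, 3 and 8. Igtp ranked 2, 1 and 1, while Gbp3 ranked 10, 9 and 10. Gbp5 was thus among the least abundant members in lymphoid cells and next to Igtp in the tumour library.

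Gbp5 made up 6.09% and 5.59% of the 10 genes' summed FPKM in the lymphoid libraries and 15.0% in the tumour library. Gbp2 made up 7.65%, 7.76% and 12.1%, and Ifi47 16.8%, 13.4% and 7.24%. Against the geometric mean of the other 9 genes of the same library, Gbp5 differed between tumour and lymphoid by 1.495 log2 units, Gbp2 by 0.70 and Ifi47 by -1.20. The other 7 genes differed by -0.34 to 0.15. The sum of the 10 genes was 214.1, 209.7 and 221.9 scaled FPKM. The 7 GBPs summed to 125.9, 132.2 and 152.0, and the 3 IRGs to 88.2, 77.5 and 69.9. Across the libraries the scaled total thus ran from 209.7 to 221.9 while its make-up differed. The total depends on the scaling between libraries, whereas the shares within a library do not.

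**Figure D2:**
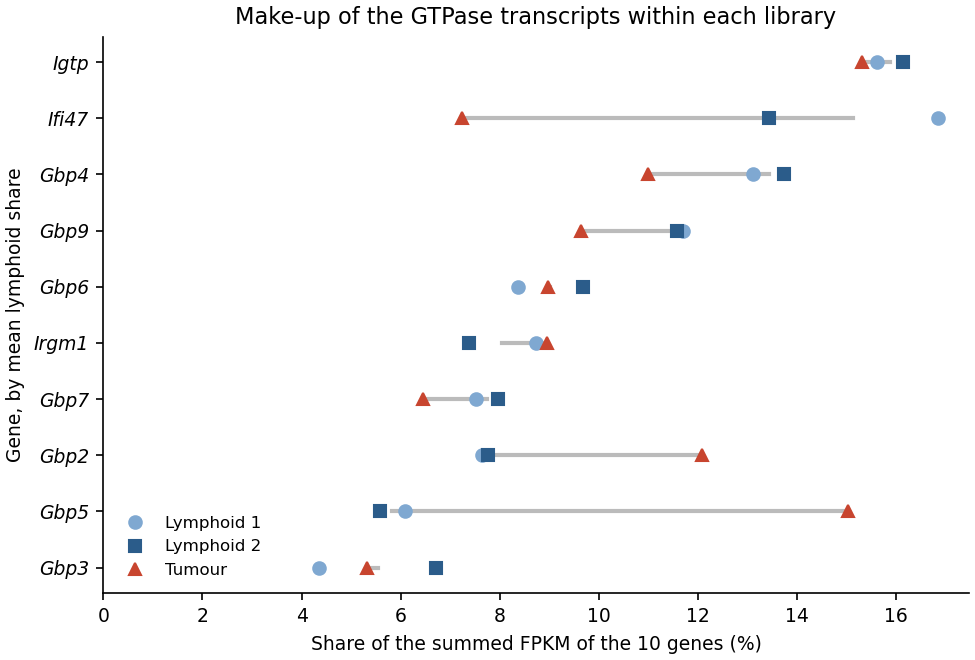
Share of the summed FPKM of the 10 genes (horizontal axis, %) held by each gene within lymphoid 1, lymphoid 2 and the tumour library, with a grey line from the lymphoid mean to the tumour point. Gbp5 moves from 6.09% and 5.59% to 15.0%, Gbp2 from 7.65% and 7.76% to 12.1%, and Ifi47 from 16.8% and 13.4% to 7.24%.

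The members' differences moved with the scaling used between libraries. As deposited, all tested genes had a median log2 difference of -0.96, and 8 members were called lower, all but Gbp2 and Gbp5, beside 77.8% of all tested genes. Scaled to library totals, that median was 0.65, and 5 members were called higher (Gbp5, Gbp2, Gbp3, Gbp6 and Irgm1), beside 44.6% of all tested genes. Both member counts are near those shares.

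**Figure D3:**
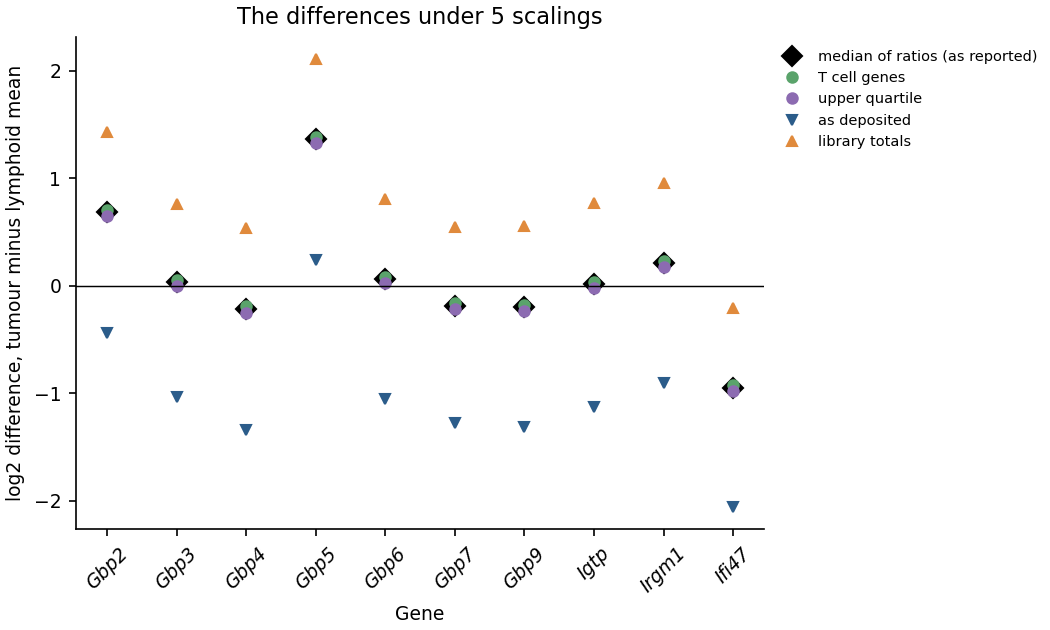
Log2 difference (tumour minus lymphoid mean, vertical axis) of each of the 10 genes under 5 scalings between libraries, 1 symbol per scaling. Gbp5 is above 0 and Ifi47 below 0 under all 5, whereas Gbp2, Gbp3, Gbp6, Igtp and Irgm1 turn below 0 in the values as deposited, Igtp also with the upper quartile, and Gbp4, Gbp7 and Gbp9 turn above 0 on library totals.

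Sequence shared with other genes was low for most members and high for Gbp6. The share of 75-base windows of a member's longest coding transcript that also occur in another gene's transcripts was 0.067% for Gbp5, 0.983% for Gbp2 and 2.30% for Ifi47. It was 0 for Irgm1, 2.68% for Gbp3, 4.32% for Gbp9, 5.35% for Gbp4, 8.37% for Igtp (with Irgm2) and 11.4% for Gbp7. For Gbp6 it was 86.0%, all of it found in the gene model Gm43302, so the value of Gbp6 is uncertain. Gbp10, also measured here, held 51.7% of the Gbp6 windows. The share for Gbp10 itself was not computed. In GENCODE M21 the models of Gbp4, Gbp8 and Gbp9 overlap, as do those of Igtp and Irgm2 and those of Ifi47 and Olfr56, and how the authors counted such reads is not given in the sources used here.

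A further 20 genes of the GBP, IRG and related GTPase families (among them Gvin1, Gm4070 and Gm8989) were measured and 18 tested. Of these, 4 were called higher, 1 lower and 13 not called, beside 12.7% and 9.17% of all tested genes. The higher calls include Gm4951, which reached the minimum mean of 1 FPKM only through the tumour library, and 3 are left without it. F830016B08Rik, an IRG family gene, measured 2.72 and 2.25 in the lymphoid libraries and 22.7 in the tumour library. This 9.13-fold ratio gave a log2 difference of 2.77 (SE 0.16, limma adjusted p = 0.000769, and 0.00524 with counting error). It was the only one of the 18 tested that was called with counting error. Gm4951, another IRG family gene, measured 0.781, 0.651 and 2.03, and its call is not read further for that reason. Gm12250, the gene of Irgb10, measured 11.2, 11.6 and 6.19 (log2 difference -0.79, limma adjusted p = 0.0220, and 0.358 with counting error). Gbp11, at 2.14, 2.16 and 3.73 (limma adjusted p = 0.0412), and Gm12185, at 1.85, 1.82 and 3.54 (0.0283), were also called higher. The row named Gbp1, an older symbol of Gbp2b, measured 1.37, 1.34 and 1.39 and was not called. Over all 30 genes, the members included, 28 were tested, 6 were called higher (5 without Gm4951), 2 lower and 20 not called.

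**Figure D4:**
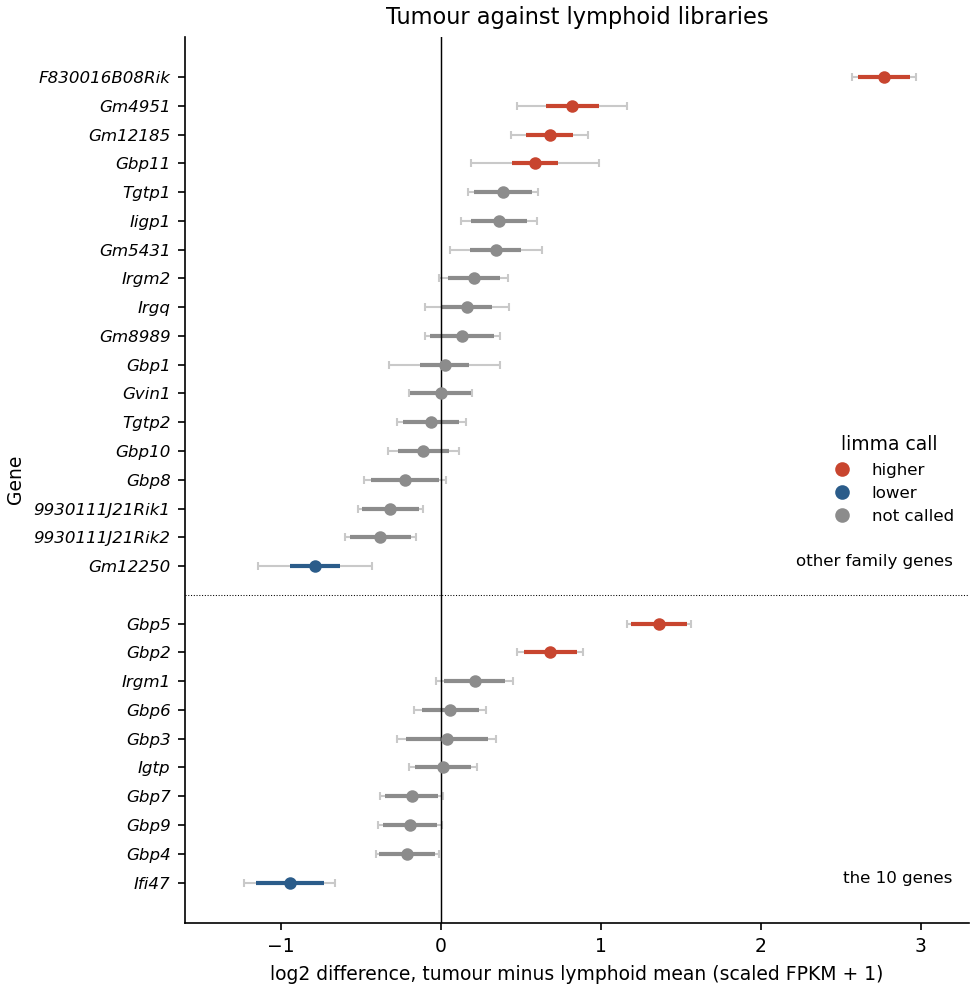
Log2 difference (tumour minus lymphoid mean of log2(scaled FPKM + 1), horizontal axis) of the 10 genes and the 18 other tested family genes, coloured by limma call. Thick bars are the SE from the lymphoid pair and thin bars the SE with counting error; F830016B08Rik at 2.77 and Gbp5 at 1.36 lie farthest right, and Ifi47 at -0.95 farthest left.

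The signal upstream of these genes was read from lists of the pathway. Counts of calls in these lists are not read as results about the lists. Over all tested genes 12.7% were called higher and 9.17% lower. Of 10 measured genes of interferon gamma production, 8 were tested, 0 rose and 1 fell (median 0.06). The gene that fell was Ifng itself, which measured 12.9 and 12.0 in the lymphoid libraries and 4.53 in the tumour library. Its log2 difference was -1.28 (SE 0.16, limma adjusted p = 0.00535), but only about 10.3 fragments stood behind the tumour value, and the adjusted p was 0.206 with counting error. Tbx21, the T-bet factor that defines Th1 cells, measured 18.0, 20.2 and 12.9 and was not called (log2 difference -0.53, limma adjusted p = 0.0879).

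Of 16 receptor and JAK-STAT genes, 15 were tested, 4 rose and 1 fell (median 0.10), and with counting error 2 rose and 0 fell. The shares of all tested genes were 12.7% and 9.17%, and 3.6% and 0.329% with counting error. Ifngr1, the ligand-binding receptor chain, measured 36.3 and 32.6 in the lymphoid libraries and 141.6 in the tumour library. Its tumour value lay far above both (log2 difference 2.01, SE 0.19, limma adjusted p = 0.00228, and 0.00993 with counting error). Ifngr2, the signalling chain, measured 0.855, 0.675 and 1.60 and was too low to be tested. Socs3, a feedback inhibitor of cytokine receptors, measured 8.73, 9.11 and 27.2 (log2 difference 1.51, limma adjusted p = 0.00324, and 0.0204 with counting error). Cish, at 6.01, 6.25 and 12.0 (limma adjusted p = 0.0161), and Stat3, at 18.7, 19.3 and 31.5 (0.0392), were also called higher. Socs2, a feedback inhibitor best known in growth hormone signalling, measured 6.89, 6.15 and 2.37 (log2 difference -1.16, limma adjusted p = 0.00670, and 0.201 with counting error).

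None of the 9 tested interferon-induced transcription factors was called by limma, with or without counting error (median 0.20). Irf1 measured 37.5, 41.0 and 45.2 (log2 difference 0.20, limma adjusted p = 0.476). Irf1, whose protein can bind ISRE letters, was thus not called at the RNA level. Its binding at Gbp5 or Igtp was not measured here.

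Of 34 other interferon gamma target genes, 24 were tested, 3 rose and 0 fell (median -0.10), and none was called with counting error. All tested genes were called higher at 12.7% and lower at 9.17%. Casp4, the mouse caspase-11 that senses lipopolysaccharide released by GBP action, measured 4.39, 4.92 and 10.2 (log2 difference 0.99, limma adjusted p = 0.0116, and 0.190 with counting error). Cd274, which encodes PD-L1, measured 5.58, 5.53 and 9.42 (log2 difference 0.67, limma adjusted p = 0.0316, and 0.222 with counting error). Cxcl10, a chemokine, was the third, at 1.30, 1.39 and 2.51 (limma adjusted p = 0.0491). Of 29 genes whose proteins work with GBPs and IRGs (autophagy, prenylation and inflammasome genes), 26 were tested, 6 rose and 1 fell (median 0.09), and none was called with counting error. These counts stand beside the same 12.7% and 9.17% of all tested genes. Sqstm1, an autophagy adaptor, measured 24.1, 26.7 and 52.9 (log2 difference 1.03, limma adjusted p = 0.0162, and 0.0635 with counting error). Atg5, part of the complex that attaches LC3 to membranes and helps place GBPs and IRGs on vacuoles, measured 6.27, 6.44 and 3.57 (log2 difference -0.69, limma adjusted p = 0.0277, and 0.368 with counting error).

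Of 35 type I interferon genes, 34 were tested, 6 were called higher and 4 lower (median -0.04), and with counting error 1 rose and 0 fell. Of the 4 lower calls, Cmpk2 and Oas1b reached the minimum mean only through the lymphoid libraries, which leaves 2. Oasl2, an antiviral protein of the oligoadenylate synthetase family, measured 1.62, 1.61 and 5.97 (log2 difference 1.41, limma adjusted p = 0.00287, and 0.0488 with counting error). Isg15, a ubiquitin-like modifier, measured 6.38, 8.39 and 20.6 (log2 difference 1.37, limma adjusted p = 0.00935, and 0.110 with counting error). Usp18, which removes ISG15, measured 5.40, 5.72 and 2.41 (log2 difference -0.94, limma adjusted p = 0.0109, and 0.310 with counting error). Cmpk2, a nucleotide kinase, measured 1.72, 1.40 and 0.489. The counts of this list stand beside 12.7% of all tested genes called higher and 9.17% called lower. With counting error those shares were 3.6% and 0.329%. Calls in both directions are thus not read as a result about the list.

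**Figure D5:**
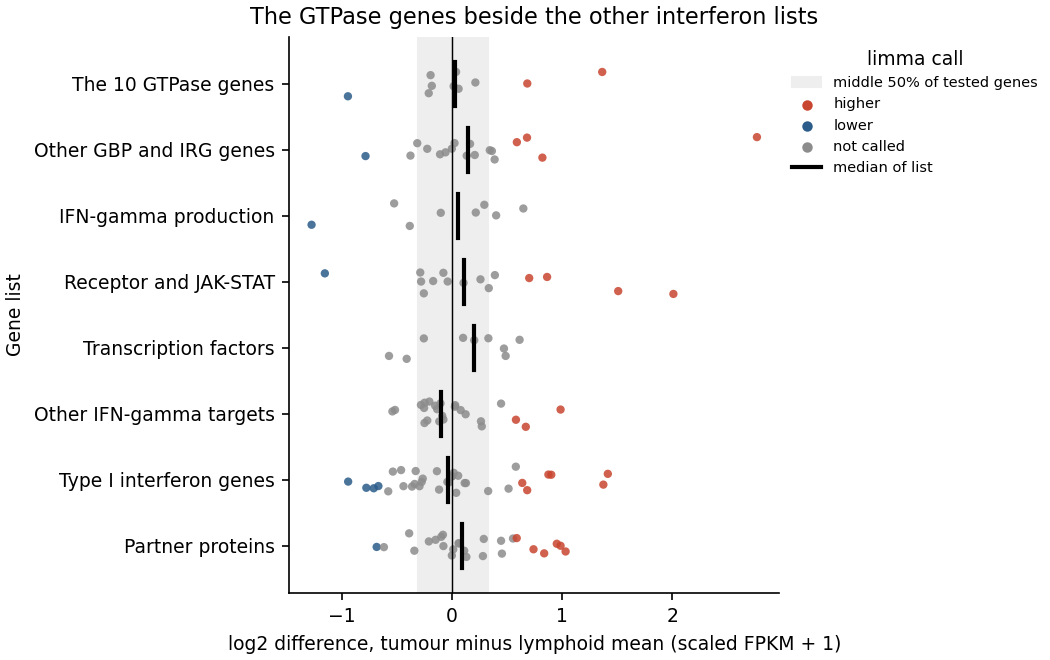
Log2 difference (tumour minus lymphoid mean of log2(scaled FPKM + 1), horizontal axis) of every tested gene of the 10 members and 7 other lists, coloured by limma call, with a black bar at each list's median and the middle 50% of all tested genes shaded. Medians lie between -0.10 and 0.20, and 5 of the 8 lists hold calls in both directions. Of all tested genes, 12.7% were called higher and 9.17% lower.

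Other cell types, macrophages among them, can carry GBP transcripts, so their markers are given beside the rises of Gbp5 and Gbp2. All 17 macrophage, monocyte and dendritic cell markers were measured, and their summed level was 3.28 and 2.60 scaled FPKM in the lymphoid libraries and 16.6 in the tumour library. In the tumour library 13 of the 17 lay above both lymphoid values, but only 1 of the 17 was tested. Of all tested genes, 41.3% lay above both. At the tumour library's lower depth, 1 fragment stands for a higher scaled value. Csf1r lay above both on about 1.18 tumour fragments, against 5.94 and 5.84 in the lymphoid libraries. Cd68 did so on about 1.28, against 5.21 and 6.48. Itgam, the most abundant of the 17 in the tumour library, measured 1.01, 0.674 and 3.95. It was called higher, but not with counting error. Fcer1g measured 0.235, 0.255 and 2.68, on about 2.37, 3.58 and 3.45 fragments. C1qa measured 0, 0.0946 and 2.55, on about 0, 2.02 and 5.002 fragments. Tyrobp measured 0.706, 0.103 and 2.14, on about 6.22, 1.26 and 2.41 fragments. The other 4 (C1qb, C1qc, Itgax and Ms4a7) were at 0 in the tumour library and at or near 0 in the lymphoid libraries. The CD8 T cell markers (2 of 2 measured) summed to 0.558, 0.814 and 5.27, with Cd8b1 at 0.494, 0.783 and 4.77. About 13.3 fragments stood behind the tumour value of Cd8b1. The melanocyte and melanoma markers (9 of 9) summed to 2.44, 2.77 and 4.43, with Mlana at 0 in all 3 libraries and Pmel at 0.798, 0.835 and 1.49. The B cell markers (6 of 6) summed to 0.787, 0.530 and 1.35, with Ebf1 at 0.0302, 0 and 0.703 (about 7.93 tumour fragments). Of these 6, 2 lay above both lymphoid values and 2 below both. The NK cell markers (6 of 6) summed to 26.2, 23.8 and 22.1, with Klrb1c at 23.6, 20.1 and 13.4, while 4 of the 6 lay above both lymphoid values in the tumour library. Those 4 were Eomes at 0.609, 0.724 and 1.78, Gzma at 0, 0.120 and 1.93, Ncr1 at 0, 0.169 and 1.47, and Klra8 at 0, 0 and 0.993. Their tumour values rest on about 11.9, 3.62, 4.15 and 2.20 fragments. The neutrophil markers (5 of 6) summed to 12.7, 13.0 and 13.2, most of it Mmp9 at 12.5, 12.9 and 12.6. The endothelium and fibroblast markers (8 of 8) summed to 9.83, 9.05 and 10.3, most of it Pecam1 at 9.76, 8.80 and 7.70. Of these 8, 4 lay above both lymphoid values in the tumour library and 1, Pecam1, below both. The largest of the 4 were Pdgfrb at 0.0243, 0.0257 and 1.04 and Cdh5 at 0, 0.0234 and 0.777. Their tumour values rest on about 10.7 and 5.85 fragments. Of 8 Th1 markers, all tested, 2 were called lower, Ifng and Cxcr6, a chemokine receptor at 103.1, 92.3 and 53.8 (limma adjusted p = 0.0357, and 0.143 with counting error). In the tumour library 3 of these 8 lay above both lymphoid values and 4 below both, and none was called with counting error. Of all tested genes, 9.17% were called lower. The part of other cell types in the differences of Gbp5, Gbp2 and Ifi47 was not tested.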

How the data were processed

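Deposited tables held 1 value for each of 23832 gene rows in 2 lymphoid libraries and 1 tumour library. Per the labels' protocols, total RNA from 300000 cells was made into stranded, ribosomal-RNA-depleted libraries (from 12 µl of RNA) and read in Illumina pairs of 75 bp. The submitters' processing notes name mm10, kallisto and DESeq2, without roles or versions. The unit of the deposited values is not stated and was taken as FPKM from the column style, per the file headers, and from sums that differ between libraries. Log2 folds would hold in another per-gene linear unit, while levels between genes would not.

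Each member had 1 row. For 252 symbols with several rows the row of highest mean was kept. Of 23337 symbols, 21705 matched GENCODE M21 (GRCm38) by symbol and 1271 by an older symbol. Values were scaled by median-of-ratios size factors. On log2(scaled FPKM + 1), limma 3.58.1 (under R 4.3.3) was run with its trend option. Genes below a mean of 1 FPKM as deposited were left out. Its spread comes from the lymphoid pair (1 residual degree of freedom), and the single tumour library is assumed to vary like them. The count test planned for counts was not used, since the files hold none. The fit was tested on simulated data.

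Depth was estimated from the value of FPKM times transcript length shared by most low genes (under 2 FPKM, at least 1000 nt, within 3%), taken as 1 fragment. Estimated fragments per gene use the longest coding transcript, a choice made after values were seen, and cover counting error only. Alternatives were other scalings, pseudocounts, filters, summed rows, added counting error and leaving out each lymphoid library. Named in the text are all members, of each pathway list the 2 largest called rises and falls or its most abundant gene, 8 fixed genes, the most abundant marker of other cell types, and the 3 genes closest in pattern to Igtp. Genes named beyond this (Gbp11, Gm12185, Gbp1, Stat3, Cish, Cxcl10, Oas1b and further cell type markers) were chosen after their values were seen. A gene that this rule names is not reported here. The members and lists were chosen with earlier results of these data known. Promoter sequences are RefSeq's (GRCm38.p6).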

Additional observations from a re-analysis of the deposited data

How the results depend on the processing

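Gbp5 was called higher in all 9 tested settings other than the values as deposited and library totals, counting the one reported (log2 1.08 to 1.44, limma adjusted p 0.00351 to 0.0421). Gbp2 (adjusted p 0.0346 to 0.194) and Ifi47 (0.0217 to 0.188) were each called in 6 of these 9. As deposited, 0 members were higher and 8 lower, 465 genes were higher and 7620 lower, and the members' median was -1.09. Directions turned there for Gbp2 (-0.44), Gbp3 (-1.04), Gbp6 (-1.06), Igtp (-1.13) and Irgm1 (-0.90). On library totals, 5 members were higher and 0 lower, 4370 genes higher and 279 lower, and the median was 0.77; Gbp4 (0.54), Gbp7 (0.55) and Gbp9 (0.55) turned above 0. Without a filter, 1 member was higher and 0 lower, 6467 genes were higher, and the median was -0.25; Gbp3 (-0.23), Gbp6 (-0.22), Igtp (-0.27) and Irgm1 (-0.07) turned below 0. With a minimum mean of 5 FPKM, 1 member was higher and 0 lower, with 285 genes higher and 210 lower. With counting error, 1 member was higher and 0 lower, with 350 genes higher and 32 lower, which limits calls at the tumour library's depth. The members' median ran from -0.10 to 0.039 when a lymphoid library was left out, which leaves no spread to test. Gbp3 (-0.24) and Gbp6 (-0.03) turned below 0 without lymphoid 1, and Igtp (-0.02) with the upper quartile. Scaling on T cell markers, added after seeing the data, gave the calls of Gbp5, Gbp2 and Ifi47 again. A count model was not run. The causes of these changes were not tested. No paired analysis was possible because the tumour group has 1 library and the labels pair it with neither lymphoid library.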

Other observations

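The genes outside the lists closest in pattern to Igtp over the 3 libraries, among 1010 genes within 2-fold of its mean level, were Prkar1a, a regulatory subunit of protein kinase A, Capn1, a calcium-dependent protease, and Mll1, a histone methyltransferase. Their Euclidean distances from Igtp in log2(scaled FPKM + 1), centred on the lymphoid mean, were 0.00744, 0.00872 and 0.0181. Of the 1010 genes, 82 lay within a distance of 0.1.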
